A study of Homo sapiens with 12 samples.

Results

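The untreated state of a pair of human ovarian cancer cell lines, OVSAHO and MDAH-2774, was compared by RNA sequencing, gene by gene, before any drug was given. The comparison used the 6 vehicle libraries of a 12-library study in which both lines received either DMSO or lestaurtinib, which inhibits kinases such as FLT3 and JAK2. There were 3 OVSAHO libraries and 3 MDAH-2774 libraries, and the treated libraries were not used. The labels give OVSAHO as high grade serous ovarian cancer and MDAH-2774 as endometrioid ovarian cancer, both with the genotype WT. All of these cells had grown in phenol red-free RPMI with serum, had been plated at 70% confluence and had then received DMSO for 24 h. Each labelled tumour subtype is represented by 1 line, so subtype and line cannot be told apart. The labels do not say that replicate libraries came from separate cultures, so the spread behind the p-values may be technical.

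High grade serous carcinoma is thought to arise largely from the secretory epithelium of the fallopian tube, and endometrioid carcinoma of the ovary from endometrial-type epithelium. Both epithelia descend from the mullerian duct and are known for the paired-box factor PAX8, while nuclear WT1 is a common marker of the serous type. Epithelial cells hold together through cadherins and claudins and attach to laminin and collagen through integrins, which are heterodimers of an alpha and a beta subunit. Growth factor receptors, cytokine receptors with their JAK kinases and STAT factors, and NF-kB carry signals from the surface to the nucleus.

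The libraries held 40039225 to 55941446 counts in OVSAHO and 36547466 to 44595957 counts in MDAH-2774. Over genes, the median SD of log2 CPM between replicates was 0.139 in OVSAHO and 0.137 in MDAH-2774. CPM relate counts to TMM-scaled library sizes, and RPKM are the authors' values, which also divide by gene length. Levels are given per library or as mean ± SD (n = 3 libraries per line), and differences are OVSAHO minus MDAH-2774 on the log2 scale, ± SE. A gene was called when edgeR's quasi-likelihood test gave a Benjamini-Hochberg adjusted p under 0.05 and the difference was at least 2-fold. By that rule 5265 of 13347 tested genes, or 39.4%, were called, of which 2652 (19.9%) were higher and 2613 (19.6%) lower in OVSAHO. The counts given below for gene lists are to be read against these shares. The libraries of the lines did not overlap for 10432 genes (78.2%). At least 16-fold differences were called for 631 genes (4.73%) in the higher direction and 561 genes (4.20%) in the lower direction. The median absolute log2 difference over all tested genes was 0.79, and their median signed difference was -0.02. The table holds only genes that reached 1 RPKM in at least 1 of the 12 libraries, so a gene without reads in 1 line could enter through the other line alone and then had to differ, and counts over a list describe the members that passed. In a whole-culture RNA sample, fewer cells of a kind and less RNA per cell cannot be told apart.

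Genes with the highest RPKM among those that differed at least 16-fold were first described, since they set the character of each line. BST2, the antiviral membrane protein tetherin (chromosome 19, 17402939 to 17405648 on hg38), had 784, 702 and 773 CPM in the OVSAHO libraries, against 5.23, 4.75 and 3.41 CPM in the MDAH-2774 libraries. The OVSAHO libraries all lay more than 100-fold above the MDAH-2774 libraries, with a log2 difference of 7.40 ± 0.13 (edgeR quasi-likelihood test, Benjamini-Hochberg adjusted p = 4.7e-13). SPON1, which encodes the secreted matrix protein F-spondin (chromosome 11, 13962637 to 14268133), had 1332, 1357 and 1378 CPM in the OVSAHO libraries, against 0.84, 1.75 and 1.31 CPM in the MDAH-2774 libraries. IGFBP2, an insulin-like growth factor binding protein, averaged 468 ± 59.7 CPM in OVSAHO, against 16.4 ± 0.862 CPM in MDAH-2774. The protease inhibitor gene SLPI averaged 151 ± 11.4 CPM in OVSAHO, against 4.21 ± 0.784 CPM in MDAH-2774, and S100A1, a calcium-binding protein gene, averaged 115 ± 11.9 CPM in OVSAHO, against 0.859 ± 0.207 CPM in MDAH-2774. Further genes of this kind that were higher in OVSAHO were IFITM1, PLPP3, BCAM and BMP7. In the opposite direction, MT2A, a metallothionein that binds zinc and copper (chromosome 16, 56608566 to 56609497), had 28.7, 21.2 and 21.9 CPM in the OVSAHO libraries, against 1258, 1273 and 1186 CPM in the MDAH-2774 libraries. CD44, the hyaluronan receptor (chromosome 11, 35138870 to 35232402), had 1.17, 0.71 and 0.235 CPM in the OVSAHO libraries, against 1208, 1109 and 1209.7 CPM in the MDAH-2774 libraries. The lines were thus separated for CD44 by a log2 difference of -10.60 ± 0.22 (edgeR quasi-likelihood test, Benjamini-Hochberg adjusted p = 1.1e-12). The other genes of this kind that were lower in OVSAHO were UQCRH, CXCL1, NQO1, SLC7A5, KRT19, MT1E, CAV1 and SFN. On the length-corrected scale the most abundant of them in MDAH-2774 was MT2A at 3104 ± 134 RPKM, with 54.2 ± 9.99 RPKM in OVSAHO, and the most abundant of the higher genes in OVSAHO was BST2 at 701 ± 52.2 RPKM, with 4.6 ± 0.97 RPKM in MDAH-2774.

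**Figure D1:**
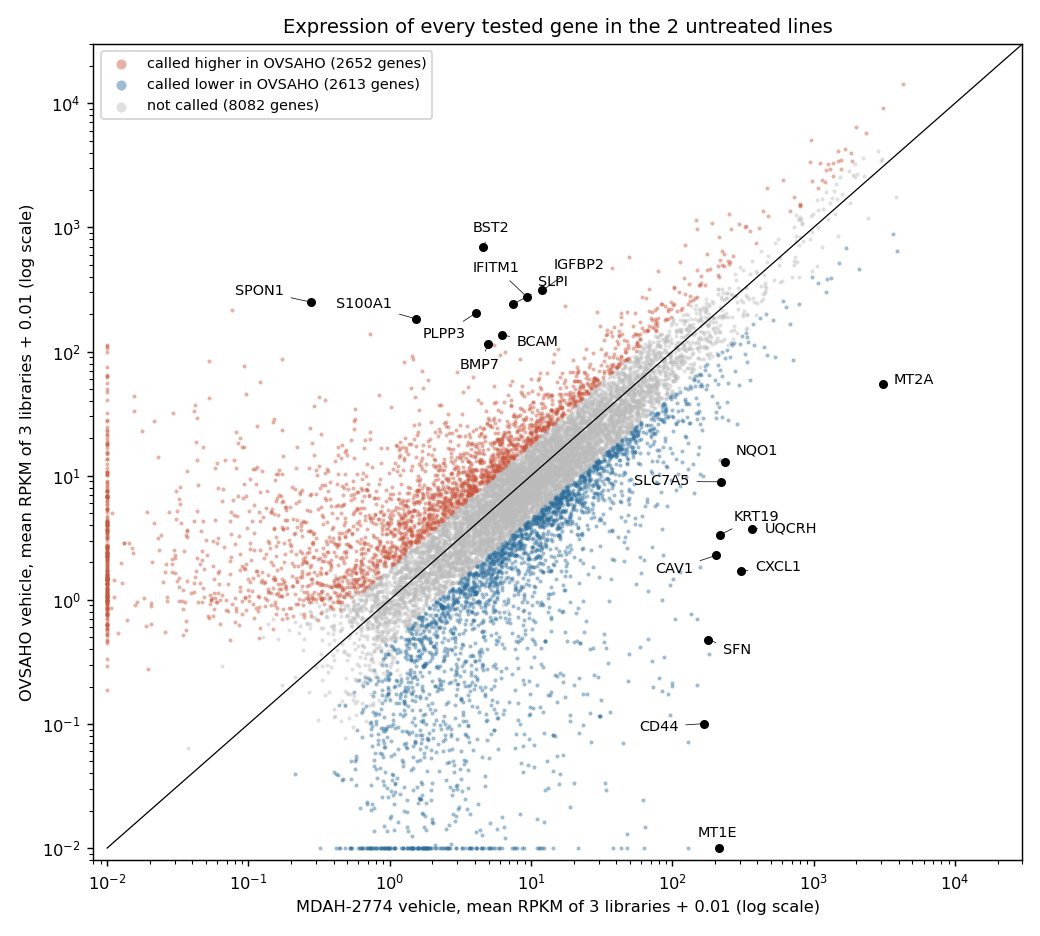
Mean RPKM of each of the 13347 tested genes in vehicle OVSAHO (vertical axis) and vehicle MDAH-2774 (horizontal axis), on log axes with 0.01 added; each point is a gene, coloured by its call. The labelled points are among the 10 genes per direction with the highest RPKM of those that differed at least 16-fold, such as BST2 and SPON1 above the line of equality and MT2A and CD44 below it.

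Of the genes of mullerian lineage and serous tumours, most were higher in OVSAHO. 21 of the 27 tested members were called higher and 4 lower, against 19.9% and 19.6% of all tested genes, and 18 were at least 16-fold higher and 2 at least 16-fold lower. The median log2 difference of the list was 5.49, and 7 members had no count in MDAH-2774. Those 7 could enter the table through other libraries alone, so the counts and the median describe only the members that passed. Of the 32 genes in the list, 27 had a row in the table. PAX8 itself (chromosome 2, 113215997 to 113278950) had 291, 259 and 267 CPM in the OVSAHO libraries, against 295, 309 and 309 CPM in the MDAH-2774 libraries. The lines did not overlap for PAX8, yet the log2 difference was -0.16 ± 0.06 and was not called. WT1, the serous marker, had 87.5, 86.4 and 87.2 CPM in the OVSAHO libraries, against 19.9, 23.6 and 20 CPM in the MDAH-2774 libraries. WT1 was therefore detected in every library of both lines and was 4.12-fold higher in OVSAHO. SOX17, a developmental transcription factor that is also active in mullerian epithelium, had 31.5, 25.8 and 32.1 CPM in the OVSAHO libraries, against 0, 1.28 and 0.759 CPM in the MDAH-2774 libraries. MECOM, which encodes the zinc finger factor EVI1, averaged 361 ± 15 CPM in OVSAHO, against 2.31 ± 0.181 CPM in MDAH-2774, and the homeobox gene EMX2 averaged 232 ± 11.6 CPM in OVSAHO, against 0.231 ± 0.178 CPM in MDAH-2774. MSLN, the surface glycoprotein mesothelin, averaged 90.1 ± 9.39 CPM in OVSAHO, against 0.0767 ± 0.133 CPM in MDAH-2774. FOLR1, folate receptor alpha, had 139, 155 and 143 CPM in the OVSAHO libraries and no count in any MDAH-2774 library. Set against 3 counts over the 3 MDAH-2774 libraries, FOLR1 was at least 6234-fold higher in OVSAHO. The oestrogen receptor gene ESR1 (chromosome 6, 151690496 to 152103274) had 56.5, 57.2 and 55 CPM in OVSAHO and no count in MDAH-2774, at least 2418-fold higher by the same floor. The progesterone receptor gene PGR and the CA-125 gene MUC16 were not analysed here, because the table has no row for them.

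The kallikrein genes, secreted serine proteases used as serous tumour markers, formed a stretch of chromosome 19 that was counted in OVSAHO alone among these libraries. KLK6 had 176, 192 and 171 CPM in the OVSAHO libraries, KLK8 had 69.6, 65.6 and 66.7 CPM and KLK7 had 37.4, 40.7 and 41.3 CPM. Their neighbours KLK10, KLK5 and KLK13 averaged 15.1 ± 1.19, 4.45 ± 0.448 and 2.37 ± 0.19 CPM in OVSAHO. None of these 6 genes had a count in any MDAH-2774 library, and KLK6 was at least 7713-fold higher in OVSAHO. Of 35 cancer-testis genes, which are normally read in germ cells, 9 had a row in the table and 8 were tested, with 7 called higher and 1 lower. Of those with a row, 7 had no count in MDAH-2774 and so passed the limit on low values through other libraries alone, so these counts do not speak for the list. MAGEA1 had 205, 203 and 198 CPM and MAGEA4 94.3, 97.2 and 89.3 CPM in the OVSAHO libraries, with no count in MDAH-2774. XAGE1A and XAGE1B, near-identical copies whose reads may be shared, averaged 10.9 ± 3.1 and 10.7 ± 2.86 CPM in OVSAHO and had no count in MDAH-2774. The exception was PRAME, at 34 ± 3.55 CPM in OVSAHO, against 71.3 ± 5.57 CPM in MDAH-2774. Its call was lost without the third OVSAHO library or without the first MDAH-2774 library, where the log2 difference stayed negative.

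Lineage genes that were lower in OVSAHO were fewer. The renal and mullerian factor PAX2 had 0.297, 0.661 and 0 CPM in the OVSAHO libraries, against 11.2, 17 and 13.3 CPM in the MDAH-2774 libraries. The calcium-binding protein gene CALB2 averaged 0.305 ± 0.528 CPM in OVSAHO, against 12.4 ± 1.98 CPM in MDAH-2774, and the endodermal and gonadal factor GATA4 averaged 0.471 ± 0.441 CPM in OVSAHO, against 15.5 ± 3.14 CPM in MDAH-2774. For each of these 3 genes every OVSAHO library lay below every MDAH-2774 library. CRABP2, a carrier of retinoic acid, averaged 12.6 ± 0.322 CPM in OVSAHO, against 122 ± 4.79 CPM in MDAH-2774, and the uroplakin gene UPK1B averaged 7.95 ± 0.572 CPM in OVSAHO, against 72.8 ± 5.5 CPM in MDAH-2774. Of the clear cell, mucinous and intestinal markers, 3 of 8 tested members were called higher and 4 lower. GATA3, a further factor of that list, averaged 18 ± 0.897 CPM in OVSAHO, against 0.425 ± 0.291 CPM in MDAH-2774. FOXA1 was called lower, at 2.54 ± 0.505 CPM in OVSAHO, against 5.48 ± 1.02 CPM in MDAH-2774, but did not reach 2-fold without the second OVSAHO library or without the first MDAH-2774 library.

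Of 21 markers of blood, endothelial, fibroblast and other cells, 4 had a row in the table, namely CD68, CDH5, COL1A1 and ACTA2. Summed over these 4, the level was 14.9 to 17.3 CPM in the OVSAHO libraries and 30.4 to 35.1 CPM in the MDAH-2774 libraries. The endothelial cadherin CDH5 averaged 0.129 ± 0.164 CPM in OVSAHO, against 1.62 ± 0.303 CPM in MDAH-2774, and the fibroblast collagen COL1A1 averaged 0.676 ± 0.0936 CPM in OVSAHO, against 4.4 ± 1.23 CPM in MDAH-2774. Both of these markers were called lower in OVSAHO, and 0 of the 4 were called higher by edgeR, DESeq2 or limma-voom, or were higher at an unadjusted p under 0.05 in edgeR.

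HOX genes, the homeobox factors that give cells their position along the body axis, were mostly lower in OVSAHO. 16 of 26 tested members (61.5%) were called lower and 4 (15.4%) higher, against 19.6% and 19.9% of all tested genes. The median log2 difference was -2.07. Summed over the list, the level was 142.9 to 149.6 CPM in the OVSAHO libraries and 148.3 to 154.6 CPM in the MDAH-2774 libraries. These sums overlapped between the lines. The members called higher were HOXB2, HOXB3, HOXB4 and HOXC4. HOXB2 had 18.4, 17.3 and 21.2 CPM in the OVSAHO libraries and no count in MDAH-2774, and its neighbours HOXB3 and HOXB4 averaged 30.8 ± 4.22 and 25 ± 1.85 CPM in OVSAHO, against 0.722 ± 0.624 and 1.42 ± 0.698 CPM in MDAH-2774. HOXB9, farther along the same cluster, averaged 0.639 ± 0.495 CPM in OVSAHO, against 15 ± 0.17 CPM in MDAH-2774. HOXD13 had no count in OVSAHO and 11.3, 9.75 and 9.89 CPM in the MDAH-2774 libraries, and HOXC10 averaged 3.56 ± 0.151 CPM in OVSAHO, against 15 ± 1.72 CPM in MDAH-2774. The HOXB cluster genes named here were thus split, with HOXB2, HOXB3 and HOXB4 higher and HOXB9 lower in OVSAHO.

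**Figure D2:**
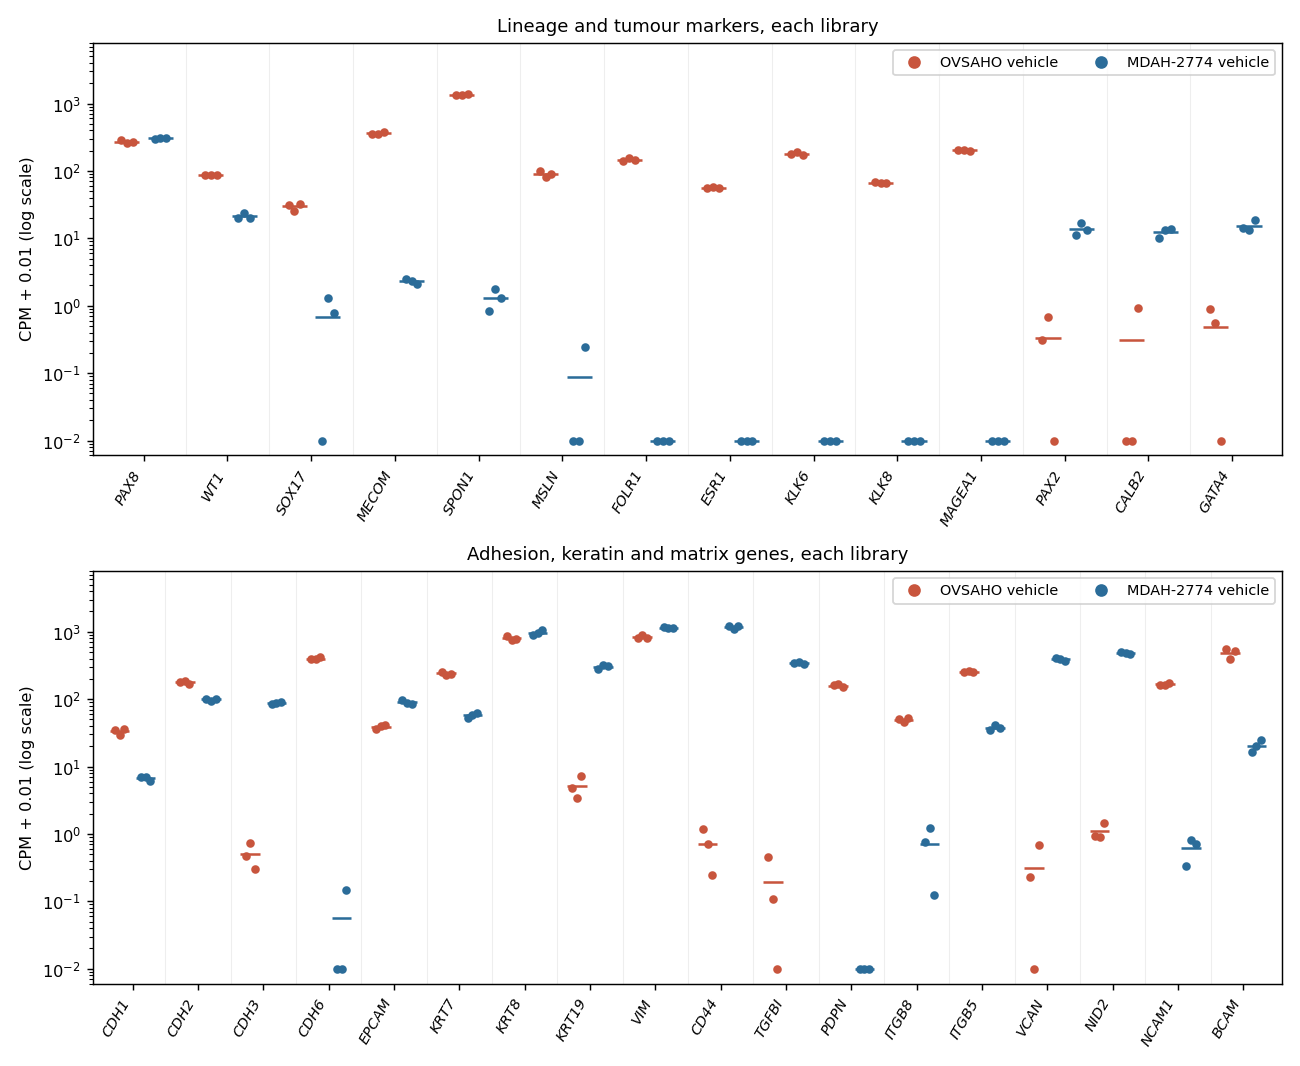
CPM of lineage genes (top) and of adhesion, keratin and matrix genes (bottom) in each vehicle library, on a log axis with 0.01 added; OVSAHO points stand left of MDAH-2774 points, short lines mark the mean of 3 libraries, and points at the bottom have no count. PAX8, KRT8 and VIM lie at like levels in both lines, while SPON1, FOLR1 and CDH6 are high in OVSAHO and CD44, VCAN and KRT19 in MDAH-2774.

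Both lines carried epithelial genes, but with different cadherins. CDH1, E-cadherin (chromosome 16, 68737292 to 68835542), had 34.7, 29.1 and 35.6 CPM in the OVSAHO libraries, against 6.89, 6.98 and 6.1 CPM in the MDAH-2774 libraries. CDH2, N-cadherin, had 178, 188 and 169 CPM in the OVSAHO libraries, against 102, 94.8 and 100.3 CPM in the MDAH-2774 libraries. CDH1 was called higher in OVSAHO, and CDH2 was not called, with a log2 difference of 0.85 ± 0.07. CDH6, K-cadherin (chromosome 5, 31193655 to 31329146), had 392, 391 and 418 CPM in the OVSAHO libraries, against 0, 0 and 0.138 CPM in the MDAH-2774 libraries, and the MDAH-2774 value came from 6 counts in 1 library. CDH3, P-cadherin, lay the other way, with 0.465, 0.735 and 0.287 CPM in the OVSAHO libraries, against 84.8, 87.8 and 89.4 CPM in the MDAH-2774 libraries. On the length-corrected scale CDH6 was the most abundant of these 4 cadherins in OVSAHO, at 44 ± 2.05 RPKM, while CDH2 was at 34.5 ± 1.43 RPKM and CDH1 at 5.82 ± 0.699 RPKM. In MDAH-2774 CDH2 was at 21.2 ± 0.547 RPKM and CDH3 at 18.7 ± 0.625 RPKM, a gap smaller than that of either to CDH1 at 1.29 ± 0.1 RPKM.

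Epithelial junction genes and their regulators were called lower in OVSAHO for 20 of 46 tested members (43.5%) and higher for 7 (15.2%). These shares stood against 19.6% and 19.9% of all tested genes. ESRP1, an epithelial splicing regulator, had 3 counts over all OVSAHO libraries and 14.9, 18.7 and 21.6 CPM in the MDAH-2774 libraries, a ratio of 812 (exact interval 278 to 3942). The desmosomal plakophilin gene PKP3 averaged 1.62 ± 0.759 CPM in OVSAHO, against 92.7 ± 11.6 CPM in MDAH-2774, the membrane protease gene ST14 averaged 0.511 ± 0.196 CPM in OVSAHO, against 16.5 ± 4 CPM in MDAH-2774, and the epithelial adhesion molecule EPCAM averaged 39.3 ± 2.73 CPM in OVSAHO, against 89.6 ± 6.64 CPM in MDAH-2774. The higher members included EHF, an epithelial ETS factor, at 18 ± 0.874 CPM in OVSAHO, against 0.416 ± 0.069 CPM in MDAH-2774, and the tight junction genes TJP3 and CLDN4, at 29.5 ± 3.03 and 39.5 ± 5.33 CPM in OVSAHO against 1.03 ± 0.443 and 6.43 ± 1.55 CPM in MDAH-2774. Among keratins, the intermediate filaments of epithelia, 3 of 11 tested genes were called higher and 5 lower. These were 27.3% and 45.5%, against 19.9% and 19.6% of all tested genes. In MDAH-2774, 2 of the 11 keratins had no count, so these could enter the table through other libraries alone. Fewer keratins were called higher with the filter of at least 1 CPM in 3 libraries. KRT19 had 4.81, 3.43 and 7.15 CPM in the OVSAHO libraries, against 276, 317 and 313 CPM in the MDAH-2774 libraries. KRT7 had 251, 232 and 239 CPM in the OVSAHO libraries, against 53.3, 59.2 and 62.7 CPM in the MDAH-2774 libraries, so the pair of simple keratins moved in opposite directions. KRT80 averaged 1.64 ± 0.772 CPM in OVSAHO, against 205 ± 12.1 CPM in MDAH-2774. KRT8 averaged 807 ± 56 CPM in OVSAHO, against 969 ± 91.8 CPM in MDAH-2774 and was not called, and its partner KRT18 was 2.06-fold lower in OVSAHO.

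Mesenchymal genes were split between the lines. In OVSAHO 11 of 31 tested members (35.5%) were called higher and 14 (45.2%) lower, against 19.9% and 19.6% of all tested genes. VIM, the intermediate filament vimentin, averaged 843 ± 44.5 CPM in OVSAHO, against 1152 ± 29.8 CPM in MDAH-2774 and was not called. The transition factor ZEB1 averaged 23.5 ± 2.85 CPM in OVSAHO, against 12.2 ± 3.88 CPM in MDAH-2774. ZEB1 missed the 2-fold limit by little, and it was called when the first OVSAHO library or either of the first and second MDAH-2774 libraries was left out. TGFBI, a secreted matrix protein induced by TGF-beta, had 0.446, 0.0979 and 0 CPM in the OVSAHO libraries, against 345, 352 and 338 CPM in the MDAH-2774 libraries. AXL, a receptor tyrosine kinase of mesenchymal-like tumour cells, averaged 0.594 ± 0.242 CPM in OVSAHO, against 168 ± 7.11 CPM in MDAH-2774, and the caveolin gene CAV1 averaged 8.77 ± 1.81 CPM in OVSAHO, against 713 ± 5.48 CPM in MDAH-2774. The homeobox gene PRRX1 had no count in OVSAHO and 7.69, 8.6 and 9.57 CPM in the MDAH-2774 libraries. In the other direction, PDPN, the mucin-type glycoprotein podoplanin (chromosome 1, 13583757 to 13617957), had 161, 167 and 151 CPM in the OVSAHO libraries and no count in MDAH-2774. The metalloproteinase inhibitor TIMP3 averaged 165 ± 4.44 CPM in OVSAHO, against 0.744 ± 0.468 CPM in MDAH-2774, and the matrix protein SPARC averaged 28.3 ± 0.948 CPM in OVSAHO, against 0.0718 ± 0.124 CPM in MDAH-2774. The list therefore held genes with at least 16-fold differences in each direction, 7 higher and 9 lower.

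Integrin subunits were mostly lower in OVSAHO, with 10 of 17 tested genes (58.8%) called lower, against 19.6% of all tested genes. The 3 called higher (17.6%) lay near the 19.9% of all tested genes. ITGB1, the common beta subunit, had 373, 408 and 428 CPM in the OVSAHO libraries, against 1790.3, 1790.3 and 1856 CPM in the MDAH-2774 libraries. Its laminin-binding partners ITGA3 and ITGA6 averaged 47 ± 2.51 and 7.97 ± 0.818 CPM in OVSAHO against 368 ± 26.5 and 93.6 ± 7.78 CPM in MDAH-2774, and the fibronectin-binding partner ITGA5 averaged 5.02 ± 1.16 CPM in OVSAHO, against 57.4 ± 2.94 CPM in MDAH-2774. The higher subunits were ITGB5, ITGB8 and ITGA7. ITGB8, whose dimer with the alpha v subunit binds latent TGF-beta, had 50.3, 46.6 and 52.8 CPM in the OVSAHO libraries, against 0.754, 1.23 and 0.115 CPM in the MDAH-2774 libraries. ITGB5 averaged 256 ± 4.24 CPM in OVSAHO, against 37.9 ± 3.34 CPM in MDAH-2774. Summed over the list, integrin transcripts reached 895 to 957 CPM in the OVSAHO libraries and 2567 to 2718 CPM in the MDAH-2774 libraries.

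Matrix genes differed strongly in both directions, with 15 of 40 tested members (37.5%) called higher and 19 (47.5%) lower. These shares stood against 19.9% and 19.6% of all tested genes. VCAN, the proteoglycan versican (chromosome 5, 83471674 to 83582303), had 0.223, 0 and 0.679 CPM in the OVSAHO libraries, against 406, 401 and 375 CPM in the MDAH-2774 libraries. The basement membrane linkers NID2 and NID1 averaged 1.1 ± 0.315 and 0.0535 ± 0.0559 CPM in OVSAHO against 485 ± 16.3 and 9.59 ± 2.25 CPM in MDAH-2774. Fibronectin, FN1, averaged 3.78 ± 0.782 CPM in OVSAHO, against 229 ± 15.8 CPM in MDAH-2774. The collagen IV pair COL4A1 and COL4A2, which lie head to head on chromosome 13, were each 14.7-fold lower in OVSAHO. COL5A1 and FBLN2, a fibrillar collagen chain and a fibulin, had 24.5, 19.2 and 28.5 CPM and 25.4, 17.7 and 15.3 CPM in the OVSAHO libraries, with no count in MDAH-2774. COL9A2 averaged 114 ± 14.3 CPM in OVSAHO, against 1.13 ± 0.276 CPM in MDAH-2774. The fibulin gene EFEMP1 averaged 55.8 ± 3.5 CPM in OVSAHO, against 0.244 ± 0.0813 CPM in MDAH-2774. LAMA3, a laminin chain, averaged 262 ± 10.7 CPM in OVSAHO, against 29.2 ± 1.51 CPM in MDAH-2774.

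Adhesion molecules outside the cadherin and integrin lists were mostly higher, with 15 of 26 tested members (57.7%) called higher and 6 (23.1%) lower. All tested genes gave 19.9% and 19.6%. NCAM1, the neural cell adhesion molecule, had 159.8, 163 and 175 CPM in the OVSAHO libraries, against 0.323, 0.796 and 0.69 CPM in the MDAH-2774 libraries. BCAM, a laminin receptor of the immunoglobulin family, had 557, 392 and 523 CPM in the OVSAHO libraries, against 16.2, 20.3 and 24.7 CPM in the MDAH-2774 libraries. The protocadherin PCDH7 averaged 119 ± 2.89 CPM in OVSAHO, against 1.51 ± 0.344 CPM in MDAH-2774, and L1CAM was 3.08-fold higher in OVSAHO. ICAM1, the leukocyte-binding molecule, was the clearest exception among the named members, with 0.929, 1.57 and 1.7 CPM in the OVSAHO libraries, against 172, 182 and 195 CPM in the MDAH-2774 libraries.

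Of the receptor tyrosine kinases, 6 of 30 tested genes were called higher in OVSAHO, a share near the 19.9% of all tested genes, and 12 (40.0%) lower, against 19.6%. EGFR, the epidermal growth factor receptor (chromosome 7, 55019032 to 55207338), had 11.3, 8.25 and 11 CPM in the OVSAHO libraries, against 238, 232 and 223 CPM in the MDAH-2774 libraries. MET, the hepatocyte growth factor receptor, had 46.2, 43.8 and 49.1 CPM in the OVSAHO libraries, against 314, 319 and 316 CPM in the MDAH-2774 libraries, and its relative MST1R averaged 0.456 ± 0.181 CPM in OVSAHO, against 38 ± 7.22 CPM in MDAH-2774. ERBB4, a neuregulin receptor of the EGFR family, had 88.8, 92.1 and 100.1 CPM in the OVSAHO libraries, against 2.24, 3.95 and 3.36 CPM in the MDAH-2774 libraries. Within that family ERBB2 averaged 99.9 ± 7.03 CPM in OVSAHO, against 61.9 ± 2.21 CPM in MDAH-2774 and was not called, so the family members differed in opposite directions or not by 2-fold. FGFR2, a fibroblast growth factor receptor, had 149.9, 148 and 156 CPM in the OVSAHO libraries, against 16.5, 19.9 and 14.8 CPM in the MDAH-2774 libraries. PTK7 and ALK averaged 246 ± 14.6 and 14.4 ± 1.68 CPM in OVSAHO against 23.2 ± 1.68 and 0.202 ± 0.187 CPM in MDAH-2774. FLT3, a known target of the study's drug, has no row in the table and was not analysed here.

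Growth factor ligands were called in equal numbers, 13 of 34 (38.2%) higher and 13 (38.2%) lower, against 19.9% and 19.6% of all tested genes. TGFA, a ligand of EGFR, had no count in OVSAHO and 34.3, 35.6 and 33.7 CPM in the MDAH-2774 libraries, and AREG, another ligand of EGFR, had 0.0929, 0.22 and 0.47 CPM in the OVSAHO libraries, against 176, 183 and 188 CPM in the MDAH-2774 libraries. MDAH-2774 thus had the higher level of the receptor and of both ligands. The platelet-derived growth factor gene PDGFB averaged 0.114 ± 0.0731 CPM in OVSAHO, against 46.6 ± 1.33 CPM in MDAH-2774. FGF18 had 48, 46.7 and 47.8 CPM in the OVSAHO libraries and 2 counts over all MDAH-2774 libraries, a ratio of 3063 (exact interval 848 to 25300). FGF9 averaged 5.91 ± 0.833 CPM in OVSAHO with no count in MDAH-2774, and the ephrin ligand EFNB2 averaged 101 ± 4.18 CPM in OVSAHO, against 1.33 ± 0.47 CPM in MDAH-2774.

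Of the WNT list, 13 of 35 tested members (37.1%) were called higher and 8 (22.9%) lower, against 19.9% and 19.6% of all tested genes. LGR5, an R-spondin receptor and stem cell marker (chromosome 12, 71439162 to 71586310), had 244, 256 and 254 CPM in the OVSAHO libraries and no count in MDAH-2774, at least 10760-fold higher. The secreted inhibitor gene FRZB averaged 54 ± 0.936 CPM in OVSAHO, against 0.0847 ± 0.127 CPM in MDAH-2774. WNT7A and WNT7B, closely related ligands, went in opposite directions. WNT7A had 29.2, 21.4 and 26.8 CPM in the OVSAHO libraries, against 0.194, 0.411 and 0.414 CPM in the MDAH-2774 libraries. WNT7B had 0.149, 0 and 0 CPM in the OVSAHO libraries, against 72.5, 68.5 and 81.3 CPM in the MDAH-2774 libraries. The feedback targets RNF43 and AXIN2 averaged 8.96 ± 1.15 and 9.61 ± 0.54 CPM in OVSAHO against 0.552 ± 0.591 and 0.748 ± 0.382 CPM in MDAH-2774, whereas the inhibitor DKK1 averaged 0.161 ± 0.279 CPM in OVSAHO, against 6.16 ± 0.855 CPM in MDAH-2774. CTNNB1, which encodes beta-catenin, averaged 319 ± 7.04 CPM in OVSAHO, against 426 ± 9.53 CPM in MDAH-2774 and was not called.

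Of the NOTCH list, 6 of 23 tested members (26.1%) were called higher and 6 (26.1%) lower, against 19.9% and 19.6% of all tested genes. The receptor NOTCH3 had 36.7, 23.7 and 24.2 CPM in the OVSAHO libraries, against 0.215, 0 and 0.115 CPM in the MDAH-2774 libraries, and its relative NOTCH1 averaged 11.4 ± 3.53 CPM in OVSAHO, against 34.5 ± 6.17 CPM in MDAH-2774. HES7, a target in the embryo, averaged 0.0496 ± 0.0858 CPM in OVSAHO, against 12.4 ± 2.04 CPM in MDAH-2774. NRARP, a feedback inhibitor, was called lower, but lost that call without any 1 of 4 libraries, namely OVSAHO library 2 or 3 or MDAH-2774 library 2 or 3. TGF-beta and BMP genes were called higher for 9 of 40 tested members (22.5%) and lower for 12 (30.0%). The first share lay near the 19.9% of all tested genes, and the second stood against 19.6%. BMP7 (chromosome 20, 57168753 to 57266651) had 515, 467 and 483 CPM in the OVSAHO libraries, against 16.6, 20.2 and 20.4 CPM in the MDAH-2774 libraries, and the BMP receptor BMPR1B averaged 26.7 ± 1.45 CPM in OVSAHO, against 1.34 ± 0.185 CPM in MDAH-2774. TGFB1 averaged 4.19 ± 1.77 CPM in OVSAHO, against 42.7 ± 1.86 CPM in MDAH-2774, and the TGF-beta effector SMAD3 averaged 80.8 ± 2.29 CPM in OVSAHO, against 497 ± 18.8 CPM in MDAH-2774. ID3, a known target of BMP signals, was lower in OVSAHO, at 16.1 ± 1.16 CPM in OVSAHO, against 166 ± 26.9 CPM in MDAH-2774, although BMP7 was higher there.

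JAK and STAT genes were called lower for 18 of 42 tested members (42.9%) and higher for 6 (14.3%). These shares stood against 19.6% and 19.9% of all tested genes. STAT6, which carries interleukin 4 signals (chromosome 12, 57095404 to 57111433), had 0.669, 1.03 and 1.49 CPM in the OVSAHO libraries, against 353, 354 and 320.1 CPM in the MDAH-2774 libraries. STAT5A averaged 0.805 ± 0.365 CPM in OVSAHO, against 58.7 ± 3.03 CPM in MDAH-2774. STAT3 had 106, 106 and 106 CPM in the OVSAHO libraries, against 257, 247 and 246 CPM in the MDAH-2774 libraries. The kinase JAK1 averaged 142 ± 2.54 CPM in OVSAHO, against 387 ± 13.6 CPM in MDAH-2774. JAK2, a known target of lestaurtinib, had 5.41, 4.04 and 4.57 CPM in the OVSAHO libraries, against 6.93, 2.57 and 4.35 CPM in the MDAH-2774 libraries. The libraries of the lines overlapped for JAK2, and the log2 difference was 0.02 ± 0.37 (edgeR quasi-likelihood test, Benjamini-Hochberg adjusted p = 0.97). A difference in JAK2 under 2-fold would not have been called by the rule used. By the adjusted p alone, a difference well above this SE could still have been missed with this spread between libraries. The cytokine IL6, whose receptor signals through JAK1 and STAT3, had 2 counts over all OVSAHO libraries and 170.3, 174 and 194 CPM in the MDAH-2774 libraries, a ratio of 11910 (exact interval 3295 to 98310). SOCS2, a feedback inhibitor, averaged 0.743 ± 0.213 CPM in OVSAHO, against 26.7 ± 0.586 CPM in MDAH-2774.

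Genes of ERK feedback and output were called for all but 1 of 25 tested members, 11 higher and 13 lower. The feedback inhibitors SPRY1 and SPRY2 averaged 65.6 ± 6.31 and 60.6 ± 1.73 CPM in OVSAHO against 3.79 ± 0.56 and 3.39 ± 1.24 CPM in MDAH-2774. DUSP6, the phosphatase that acts on ERK, had 57.5, 59.3 and 62.7 CPM in the OVSAHO libraries, against 3.04, 2.52 and 2.74 CPM in the MDAH-2774 libraries. The ETS factors ETV4 and ETV5 were 3.96-fold and 5.97-fold higher in OVSAHO. FOSL1, an AP-1 factor stabilised by ERK, had 0.0929, 0.49 and 1.28 CPM in the OVSAHO libraries, against 141, 138 and 160.1 CPM in the MDAH-2774 libraries, and the urokinase receptor PLAUR averaged 1.27 ± 0.182 CPM in OVSAHO, against 57.6 ± 2.24 CPM in MDAH-2774. SPRY1, SPRY2 and DUSP6 were thus higher in OVSAHO, and FOSL1 and PLAUR lower. Of the YAP-TEAD genes, 5 of 24 (20.8%) were called higher and 8 (33.3%) lower, against 19.9% and 19.6% of all tested genes. TEAD1, the DNA-binding partner, averaged 435 ± 8.11 CPM in OVSAHO, against 179 ± 8.92 CPM in MDAH-2774. The target CCN1 averaged 31 ± 4.1 CPM in OVSAHO, against 256 ± 8.89 CPM in MDAH-2774, while its relative CCN2 averaged 8.7 ± 1.59 CPM in OVSAHO, against 3.78 ± 0.494 CPM in MDAH-2774.

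NF-kB genes, cytokines and chemokines formed the list with the most lower calls, 26 of 35 tested members (74.3%), against 19.6% of all tested genes. The 4 higher members (11.4%) stood against 19.9%, and the median log2 difference was -2.11. A run of 4 chemokine genes on chromosome 4, which attract neutrophils and follow each other among the tested genes, was lower in OVSAHO throughout. NF-kB is a dimeric factor that, once its inhibitor NFKBIA is degraded, binds sites of about the form GGAATTTCC in such promoters. The 250 bases up to the annotated start of these 4 genes, taken from RefSeq on GRCh38.p14 and shown because the genes lie in 1 run and differed together, each held that word. Gene coordinates are those of the deposited table, whose starts can differ from RefSeq's. The promoters cover chr4:73740319-73740568 and chr4:73869143-73869392 on the plus strand, and chr4:74099196-74099445 and chr4:74038690-74038939 on the minus strand, with the word in capitals, read 5′ to 3′ toward the gene.
CXCL8: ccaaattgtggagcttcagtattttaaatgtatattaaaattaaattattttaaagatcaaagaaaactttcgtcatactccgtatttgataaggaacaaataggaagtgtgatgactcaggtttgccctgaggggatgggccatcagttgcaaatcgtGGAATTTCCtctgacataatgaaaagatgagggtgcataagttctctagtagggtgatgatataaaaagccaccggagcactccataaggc
CXCL1: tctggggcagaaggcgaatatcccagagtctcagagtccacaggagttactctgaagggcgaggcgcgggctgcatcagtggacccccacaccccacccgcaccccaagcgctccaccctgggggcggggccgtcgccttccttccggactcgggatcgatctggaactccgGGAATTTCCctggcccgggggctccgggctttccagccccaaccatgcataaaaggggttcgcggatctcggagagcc
CXCL2: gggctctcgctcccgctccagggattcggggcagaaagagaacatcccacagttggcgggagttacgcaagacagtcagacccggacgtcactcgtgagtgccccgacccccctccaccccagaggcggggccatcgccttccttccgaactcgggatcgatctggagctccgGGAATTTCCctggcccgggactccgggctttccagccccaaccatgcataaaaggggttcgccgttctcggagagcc
CXCL3: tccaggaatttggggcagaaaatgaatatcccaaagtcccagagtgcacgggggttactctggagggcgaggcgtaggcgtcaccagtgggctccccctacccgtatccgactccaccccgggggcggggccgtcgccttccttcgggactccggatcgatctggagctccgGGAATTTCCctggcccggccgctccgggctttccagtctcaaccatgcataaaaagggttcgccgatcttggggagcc
The word began 91 bases before the start in CXCL8, 78 in CXCL1, 77 in CXCL2 and 78 in CXCL3. Laid over each other at the word without gaps, CXCL1 and CXCL3 shared 162 of 250 bases, and CXCL1 and CXCL8 shared 65 of 237. The word, searched on both strands, was in 145 of 35116 RefSeq promoters of this length, or 0.413%. Of the 26 NF-kB list members with a promoter in the table, 11 held it, and 9 of these 11 were called lower. Among all 35 tested list members, with or without the word, 74.3% were called lower. The list was made of NF-kB genes, so a link of the word to the level was not tested. The letters describe the promoters and do not show that the factor was bound.

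CXCL8, the chemokine interleukin 8 (chromosome 4, 73740506 to 73743716), had 0.52, 1.35 and 1.88 CPM in the OVSAHO libraries, against 159.6, 167 and 181 CPM in the MDAH-2774 libraries. CXCL1 (chromosome 4, 73869392 to 73871302) had 3.35, 1.91 and 1.12 CPM in the OVSAHO libraries, against 338, 320.1 and 379 CPM in the MDAH-2774 libraries. CXCL2 had 0.372, 0.343 and 0 CPM in the OVSAHO libraries, against 84.3, 78.6 and 88.1 CPM in the MDAH-2774 libraries. CXCL3 had 1.02, 0.196 and 0.209 CPM in the OVSAHO libraries, against 8.07, 7.67 and 9.62 CPM in the MDAH-2774 libraries. Per gene length CXCL3 was the least abundant of the 4 in MDAH-2774, at 7.65 ± 0.897 RPKM, and CXCL1 the most, at 304 ± 24.9 RPKM. No OVSAHO library reached any MDAH-2774 library for these genes, and the log2 differences ran from -8.35 ± 0.32 for CXCL2 to -4.09 ± 0.56 for CXCL3. BIRC3, an inhibitor of apoptosis and NF-kB target, averaged 1.57 ± 1.12 CPM in OVSAHO, against 321 ± 15.2 CPM in MDAH-2774, and TNF averaged 11.5 ± 1.87 CPM in OVSAHO, against 106 ± 8.66 CPM in MDAH-2774. NFKBIA, the inhibitor that NF-kB itself induces, averaged 48.2 ± 4.17 CPM in OVSAHO, against 302 ± 2.81 CPM in MDAH-2774. The subunit gene NFKB1 was 2.62-fold lower in OVSAHO, while RELA had 86.8, 81.1 and 78.1 CPM in the OVSAHO libraries, against 78.3, 81.7 and 82.3 CPM in the MDAH-2774 libraries. The lines overlapped for RELA, with a log2 difference of 0.02 ± 0.08. The exceptions included CCL28, a mucosal chemokine, with 30, 36.1 and 38 CPM in the OVSAHO libraries and no count in MDAH-2774, and CCL2, at 5.21 ± 0.198 CPM in OVSAHO, against 0.58 ± 0.228 CPM in MDAH-2774.

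**Figure D3:**
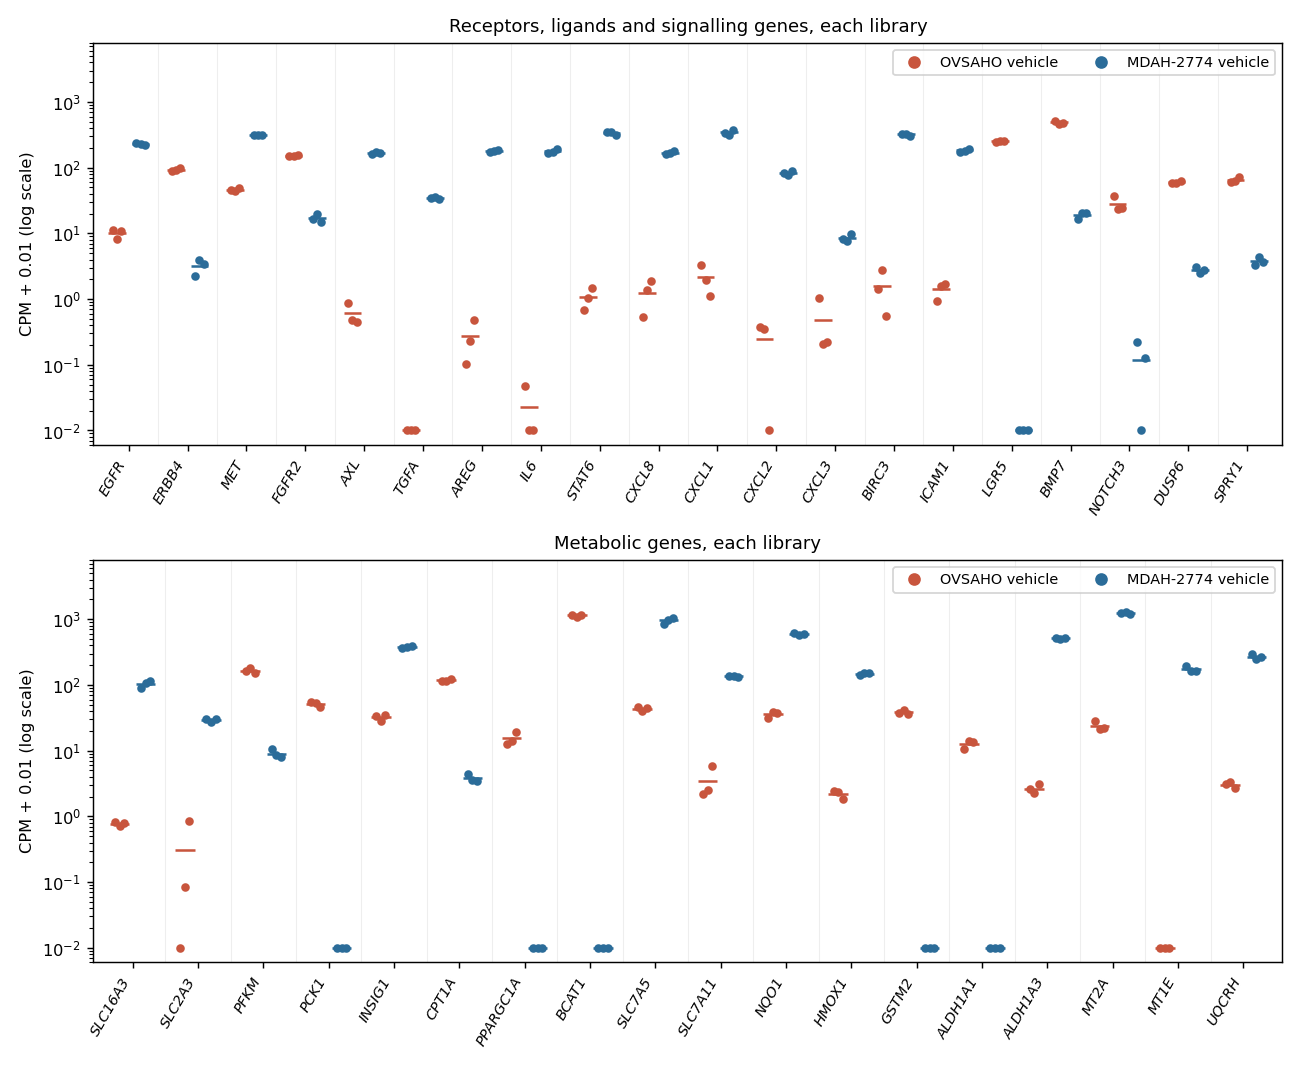
CPM of signalling genes (top) and metabolic genes (bottom) in each vehicle library, on a log axis with 0.01 added; OVSAHO points stand left of MDAH-2774 points, short lines mark the mean of 3 libraries, and points at the bottom have no count. From TGFA to ICAM1 the OVSAHO points lie below the MDAH-2774 points in every gene, and the pair ALDH1A1 and ALDH1A3 shows opposite directions.

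Interferon-stimulated genes were called higher for 8 of 39 tested members (20.5%) and lower for 17 (43.6%), against 19.9% and 19.6% of all tested genes. The higher ones included BST2 and the neighbouring membrane genes IFITM1, IFITM2 and IFITM3 on chromosome 11, which restrict virus entry. IFITM3 averaged 715 ± 33.8 CPM in OVSAHO, against 208 ± 9.04 CPM in MDAH-2774, IFITM2 223 ± 2.12 CPM in OVSAHO, against 85.8 ± 5.14 CPM in MDAH-2774, and IFITM1 had 206, 219 and 201 CPM in the OVSAHO libraries, against 6.46, 5.52 and 7.11 CPM in the MDAH-2774 libraries. These genes are alike in sequence, so reads may be shared among them. The lower ones included OAS3, a sensor of viral RNA, at 6.72 ± 0.657 CPM in OVSAHO, against 120.0 ± 6.31 CPM in MDAH-2774, the factor IRF7 at 0.0991 ± 0.172 CPM in OVSAHO, against 9.12 ± 1.06 CPM in MDAH-2774, and the RNA sensor IFIH1 at 4.65 ± 0.153 CPM in OVSAHO, against 27.2 ± 4.13 CPM in MDAH-2774. The list summed to 3003 to 3206 CPM in the OVSAHO libraries, above the 1634 to 1708 CPM in MDAH-2774, although more of its members were called lower. Antigen presentation genes were called lower for 18 of 28 tested members (64.3%) and higher for 4 (14.3%). All tested genes gave 19.6% and 19.9%. HLA-B, a class I heavy chain, was 5.04-fold lower in OVSAHO. B2M, the light chain that all class I molecules share (chromosome 15, 44711487 to 44718159), had 321, 376 and 351 CPM in the OVSAHO libraries, against 43.6, 43.3 and 45.6 CPM in the MDAH-2774 libraries, the direction opposite to HLA-B. CD74, the class II invariant chain, had 2.51, 2.91 and 2.4 CPM in the OVSAHO libraries, against 151, 159.9 and 173 CPM in the MDAH-2774 libraries, while HLA-DMB, a class II loading factor, averaged 16.9 ± 1.81 CPM in OVSAHO, against 0.0646 ± 0.112 CPM in MDAH-2774. HLA genes differ between people and have near-identical copies, so their counts depend on how well each line matches the annotated allele. The stress ligands MICB and ULBP1, seen by natural killer cells, averaged 3.3 ± 0.596 and 0.0163 ± 0.0283 CPM in OVSAHO against 110.3 ± 2.05 and 19.1 ± 2.5 CPM in MDAH-2774.

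Of the cell cycle genes, 5 of 33 tested members were called higher and 9 lower, 42.4% in all against 39.4% of all tested genes. CCNE1, cyclin E (chromosome 19, 29811898 to 29824312), had 85.3, 85.2 and 77.9 CPM in the OVSAHO libraries, against 8.12, 13.8 and 10 CPM in the MDAH-2774 libraries. CCND2, cyclin D2 (chromosome 12, 4273733 to 4305356), had no count in OVSAHO and 56.5, 52.7 and 55.2 CPM in the MDAH-2774 libraries, at least 2434-fold lower in OVSAHO against 3 counts over its libraries. CCND1, cyclin D1, was 2.13-fold lower. The inhibitor CDKN2C, which acts on the kinases of the D cyclins, had 162, 163 and 161 CPM in the OVSAHO libraries, against 13.5, 6.75 and 7.16 CPM in the MDAH-2774 libraries, and CDKN2A averaged 60.1 ± 5.71 CPM in OVSAHO, against 25.1 ± 3.05 CPM in MDAH-2774. RB1, which those kinases act on, averaged 26.1 ± 0.758 CPM in OVSAHO, against 40.2 ± 1.76 CPM in MDAH-2774 and was not called. MKI67, a proliferation marker, averaged 517 ± 11.7 CPM in OVSAHO, against 263 ± 32.5 CPM in MDAH-2774. Its log2 difference of 0.98 ± 0.08 stayed just short of 2-fold, and passed it without the first MDAH-2774 library. MYC had 68.3, 67.6 and 70.1 CPM in the OVSAHO libraries, against 227, 240.4 and 270.5 CPM in the MDAH-2774 libraries, a 3.58-fold lower level in OVSAHO.

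Genes of the growth arrest and damage response were called lower for 11 of 27 tested members (40.7%), against 19.6% of all tested genes. The 5 called higher (18.5%) lay near the 19.9% of all tested genes. CDKN1A, the kinase inhibitor p21, averaged 3.45 ± 1.34 CPM in OVSAHO, against 19.4 ± 3.06 CPM in MDAH-2774, and SFN, which encodes 14-3-3 sigma, had 0.799, 0.882 and 0.261 CPM in the OVSAHO libraries, against 203, 229.9 and 242 CPM in the MDAH-2774 libraries. PHLDA3, which restrains AKT, had 19.9, 17.2 and 18.2 CPM in the OVSAHO libraries and no count in MDAH-2774. The ubiquitin ligase gene MDM2 had 47.6, 44.4 and 54.2 CPM in the OVSAHO libraries, against 59, 53.1 and 56.5 CPM in the MDAH-2774 libraries, and the lines overlapped. Of the homologous recombination and repair genes, 12 of 45 tested members were called lower and 1 higher, a share of 26.7% against the 19.6% of all genes. CHEK1, a checkpoint kinase, had 19.1, 23 and 19.1 CPM in the OVSAHO libraries, against 108, 103 and 102 CPM in the MDAH-2774 libraries. BRCA1 averaged 47.1 ± 3.51 CPM in OVSAHO, against 103 ± 5.41 CPM in MDAH-2774, its partner BARD1 14.3 ± 0.673 CPM in OVSAHO, against 44 ± 1.7 CPM in MDAH-2774, and BRCA2 7.13 ± 1.09 CPM in OVSAHO, against 15.8 ± 1.45 CPM in MDAH-2774. RAD50, of the break-sensing complex, was the single higher member, at 136 ± 12.5 CPM in OVSAHO, against 43.2 ± 4.98 CPM in MDAH-2774. With the third OVSAHO library left out, 3 members were called higher, and with the second MDAH-2774 library left out, 2.

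Of the ovarian cancer driver and suppressor genes, 9 of 40 were called higher and 7 lower, 40.0% in all against 39.4% of all tested genes, so the share as a whole lay at the background. The remodelling ATPase SMARCA2 had 0.985, 1.47 and 0 CPM in the OVSAHO libraries, against 42.6, 36.1 and 31.7 CPM in the MDAH-2774 libraries, while its relative SMARCA4 averaged 447 ± 43 CPM in OVSAHO, against 176 ± 7.38 CPM in MDAH-2774. The suppressor NF2 averaged 27.2 ± 0.928 CPM in OVSAHO, against 166 ± 2.38 CPM in MDAH-2774, and ZNF217, a zinc finger factor often amplified in tumours, averaged 232 ± 1.63 CPM in OVSAHO, against 57.9 ± 3.18 CPM in MDAH-2774. ARID1A, a suppressor often lost in endometrioid tumours, averaged 99 ± 4.52 CPM in OVSAHO, against 72.4 ± 0.582 CPM in MDAH-2774 and was not called.

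Genes of glucose transport, glycolysis and lactate were called lower for 16 of 41 tested members (39.0%) and higher for 8 (19.5%), against 19.6% and 19.9% of all tested genes. SLC16A3, the lactate exporter (chromosome 17, 82228406 to 82239499), had 0.799, 0.71 and 0.783 CPM in the OVSAHO libraries, against 91, 107 and 116 CPM in the MDAH-2774 libraries. The glucose transporter SLC2A3 averaged 0.303 ± 0.463 CPM in OVSAHO, against 29.4 ± 1.91 CPM in MDAH-2774, and LDHA, which makes lactate, averaged 1052 ± 61.9 CPM in OVSAHO, against 3220.1 ± 101 CPM in MDAH-2774. The muscle-type phosphofructokinase gene PFKM had 164, 179 and 153 CPM in the OVSAHO libraries, against 10.6, 8.47 and 7.94 CPM in the MDAH-2774 libraries. Its platelet-type relative PFKP had 193, 177 and 172 CPM in the OVSAHO libraries, against 830.3, 905 and 960.4 CPM in the MDAH-2774 libraries, so the pair differed in opposite directions. Of the phosphoenolpyruvate carboxykinase genes, the cytosolic form PCK1 had 54.3, 53.6 and 46.6 CPM in the OVSAHO libraries and no count in MDAH-2774, while the mitochondrial form PCK2 averaged 16.5 ± 1.95 CPM in OVSAHO, against 192 ± 9.73 CPM in MDAH-2774.

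Cholesterol synthesis genes were called lower for 13 of 28 tested members (46.4%) and higher for 2 (7.1%), with a median log2 difference of -0.93. These shares stood against 19.6% and 19.9% of all tested genes. INSIG1, which holds back the sterol-sensing factors, had 34.1, 28.2 and 35.1 CPM in the OVSAHO libraries, against 359, 373 and 388 CPM in the MDAH-2774 libraries, and the sterol carrier STARD4 averaged 10.5 ± 1.66 CPM in OVSAHO, against 55.8 ± 5.54 CPM in MDAH-2774. TM7SF2, a sterol reductase, was the largest exception among the members named, at 52.9 ± 6.79 CPM in OVSAHO, against 4.92 ± 1.36 CPM in MDAH-2774. Of the fatty acid genes, 15 of 49 (30.6%) were called higher and 17 (34.7%) lower, against 19.9% and 19.6% of all tested genes. Summed over the list, the level was 3792 to 3878 CPM in the OVSAHO libraries and 6753 to 6976 CPM in the MDAH-2774 libraries. Of its members, 5 had no count in MDAH-2774 and 1 had none in OVSAHO. These could enter the table through other libraries alone. Among the members named, CPT1A, PPARGC1A and FABP3 were higher. CPT1A, which carries fatty acids into mitochondria (chromosome 11, 68754620 to 68841931), had 113, 113 and 125 CPM in the OVSAHO libraries, against 4.39, 3.62 and 3.41 CPM in the MDAH-2774 libraries. PPARGC1A, a coactivator of oxidative genes, had 12.6, 14.3 and 19.3 CPM in the OVSAHO libraries and no count in MDAH-2774, and the carrier FABP3 averaged 32.2 ± 2.96 CPM in OVSAHO, against 0.73 ± 0.114 CPM in MDAH-2774. The synthesis genes ACLY and SCD were 3.97-fold and 2.34-fold lower in OVSAHO, and their regulator SREBF1 averaged 46.9 ± 8.11 CPM in OVSAHO, against 263 ± 28.8 CPM in MDAH-2774. LPL, the lipase that frees fatty acids from lipoproteins, was lower too, at 0.18 ± 0.198 CPM in OVSAHO, against 54.8 ± 2.25 CPM in MDAH-2774.

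Nuclear-encoded subunits of the respiratory chain were called higher in OVSAHO for 23 of 59 tested members (39.0%) and lower for 2 (3.4%). The remaining 34 were not called, and all tested genes gave 19.9% higher and 19.6% lower. COX6B1 and COX7C, subunits of cytochrome oxidase, averaged 793 ± 75 and 886 ± 63 CPM in OVSAHO against 141 ± 15.7 and 182 ± 16.3 CPM in MDAH-2774. ATP5PB, a subunit of the ATP synthase, had 422, 497 and 439.7 CPM in the OVSAHO libraries, against 90.5, 88.1 and 81.8 CPM in the MDAH-2774 libraries. UQCRH, the hinge subunit of the cytochrome bc1 complex (chromosome 1, 46303613 to 46316777), was a clear exception, with 3.05, 3.33 and 2.72 CPM in the OVSAHO libraries, against 292, 249 and 268 CPM in the MDAH-2774 libraries. Its near-identical copy UQCRHL had no count in OVSAHO and 21.8, 27.2 and 23.7 CPM in the MDAH-2774 libraries, so the low UQCRH level in OVSAHO was not matched by reads on the copy. The handling of reads that fit both copies is unknown from the sources used. NDUFB10, of complex I, was the other lower member, at 38.6 ± 2.25 CPM in OVSAHO, against 87.9 ± 7.26 CPM in MDAH-2774. Of the cytosolic ribosomal protein genes, 25 of 61 (41.0%) were called higher and 0 lower, with 36 not called. By edgeR's Benjamini-Hochberg adjusted p alone, 53 were higher and 2 lower, against 37.0% and 37.6% of all tested genes, and at an unadjusted p under 0.05 53 were higher and 2 lower. DESeq2 and limma-voom likewise called 25 higher and 0 lower. RPS24 had 3351, 3928 and 3568 CPM in the OVSAHO libraries, against 617, 556 and 548 CPM in the MDAH-2774 libraries, and RPL8 averaged 5281 ± 205 CPM in OVSAHO, against 915 ± 38.2 CPM in MDAH-2774. The list summed to 113673 to 123152 CPM in the OVSAHO libraries and 57026 to 61913 CPM in the MDAH-2774 libraries. The elongation factor gene EEF1A1 alone took 5.595 to 6.237% of counts in OVSAHO and 1.656 to 1.891% in MDAH-2774. With RLE or upper-quartile scaling in place of TMM, 25 ribosomal protein genes were again called higher.

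Amino acid metabolism genes were called for 36.7% of 49 tested members, near the 39.4% of all genes, 7 higher and 11 lower. Within the list BCAT1, the cytosolic transaminase of branched-chain amino acids (chromosome 12, 24810024 to 24949459), had 1159, 1096 and 1174 CPM in the OVSAHO libraries and no count in MDAH-2774. It was at least 49150-fold higher in OVSAHO. ASNS, which makes asparagine, averaged 94.6 ± 4.16 CPM in OVSAHO, against 515 ± 24.3 CPM in MDAH-2774, and ASS1, which acts in arginine synthesis, averaged 706 ± 11.7 CPM in OVSAHO, against 139 ± 9.1 CPM in MDAH-2774. GLDC, of the glycine cleavage system, was 8.87-fold higher in OVSAHO. Amino acid transporters were called lower for 11 of 24 tested members (45.8%), against 19.6% of all tested genes. The 5 called higher (20.8%) lay near the 19.9% of all tested genes. SLC7A5, the large neutral amino acid carrier (chromosome 16, 87830023 to 87869497), had 45.6, 39.4 and 44.6 CPM in the OVSAHO libraries, against 855, 979 and 1062 CPM in the MDAH-2774 libraries. SLC7A11, the cystine carrier, had 2.19, 2.5 and 5.77 CPM in the OVSAHO libraries, against 137, 138 and 132 CPM in the MDAH-2774 libraries. SLC3A2, the chain that both carriers need, averaged 81.8 ± 9.61 CPM in OVSAHO, against 369 ± 13.3 CPM in MDAH-2774, also lower. The arginine carrier SLC7A2 averaged 221 ± 15.2 CPM in OVSAHO, against 18.3 ± 2.46 CPM in MDAH-2774, and the glutamate carrier SLC1A3 averaged 40.5 ± 6.34 CPM in OVSAHO, against 1.1 ± 0.252 CPM in MDAH-2774.

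Genes of NRF2, glutathione and detoxification were called higher for 14 of 48 tested members (29.2%) and lower for 19 (39.6%). All tested genes gave 19.9% and 19.6%. NQO1, a quinone reductase that NRF2 induces (chromosome 16, 69709401 to 69726668), had 31.6, 39.3 and 37.1 CPM in the OVSAHO libraries, against 609.9, 578 and 589 CPM in the MDAH-2774 libraries. HMOX1, haem oxygenase, had 2.4, 2.33 and 1.83 CPM in the OVSAHO libraries, against 139.7, 151 and 149.8 CPM in the MDAH-2774 libraries, and ME1, malic enzyme, had 1.8, 1.22 and 0.0261 CPM in the OVSAHO libraries, against 102, 109 and 109 CPM in the MDAH-2774 libraries. The gene of NRF2 itself, NFE2L2, averaged 53.3 ± 8.91 CPM in OVSAHO, against 146 ± 15.2 CPM in MDAH-2774. These genes were lower together in OVSAHO, whereas the glutathione transferases of the mu class were higher. GSTM1 and GSTM2 had 27.4, 25.1 and 26.4 CPM and 36.9, 42.2 and 35.8 CPM in the OVSAHO libraries, with no count in MDAH-2774. Their neighbour GSTM4 averaged 67.6 ± 6.23 CPM in OVSAHO, against 1.63 ± 0.829 CPM in MDAH-2774. The mu class genes are alike in sequence, so reads may be shared among them. Retinoid genes were called higher for 4 of 17 (23.5%) and lower for 6 (35.3%), against 19.9% and 19.6% of all tested genes. ALDH1A1 and ALDH1A3, which both make retinoic acid, were split. ALDH1A1 had 10.8, 13.9 and 13.4 CPM in the OVSAHO libraries and no count in MDAH-2774, and ALDH1A3 (chromosome 15, 100879692 to 100916626) had 2.62, 2.23 and 3.05 CPM in the OVSAHO libraries, against 512, 509 and 524 CPM in the MDAH-2774 libraries.

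Metallothioneins, small proteins that bind zinc and copper, belonged to a list of metal genes in which 4 of 23 tested members were called higher and 9 lower. The higher share, 17.4%, lay near the 19.9% of all tested genes, and the lower share was 39.1%, against 19.6%. MTF1, the zinc-sensing factor, binds metal response elements with the core TGCNCNC, and the MT2A promoter is shown because this gene had the highest RPKM of the genes at least 16-fold lower in OVSAHO. It covers chr16:56608334-56608583 on the plus strand of GRCh38.p14, from RefSeq, with matches to the core on either strand in capitals, read 5′ to 3′.
MT2A: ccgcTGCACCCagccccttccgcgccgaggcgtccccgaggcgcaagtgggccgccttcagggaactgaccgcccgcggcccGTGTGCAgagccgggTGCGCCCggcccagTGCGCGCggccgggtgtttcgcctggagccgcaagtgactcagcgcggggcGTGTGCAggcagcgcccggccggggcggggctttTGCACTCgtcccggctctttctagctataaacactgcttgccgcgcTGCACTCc
This stretch of 250 bases held 7 matches. At least 1 match was in 49.1% of 35116 RefSeq promoters of this length, and at least 7 were in 30 of them, or 0.0854%. MT1E, a neighbour of MT2A (chromosome 16, 56625673 to 56627112), had no count in OVSAHO and 194, 164 and 163 CPM in the MDAH-2774 libraries, at least 7730-fold lower in OVSAHO. MT1X averaged 9.96 ± 2.6 CPM in OVSAHO, against 62.4 ± 7.64 CPM in MDAH-2774. Metallothionein genes are near-identical in parts, so reads may be shared among them. The ferritin chains FTH1 and FTL were 3.68-fold and 4.12-fold lower in OVSAHO, and CP, the copper-binding ferroxidase ceruloplasmin, averaged 48.7 ± 1 CPM in OVSAHO, against 0.179 ± 0.158 CPM in MDAH-2774.

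**Figure D4:**
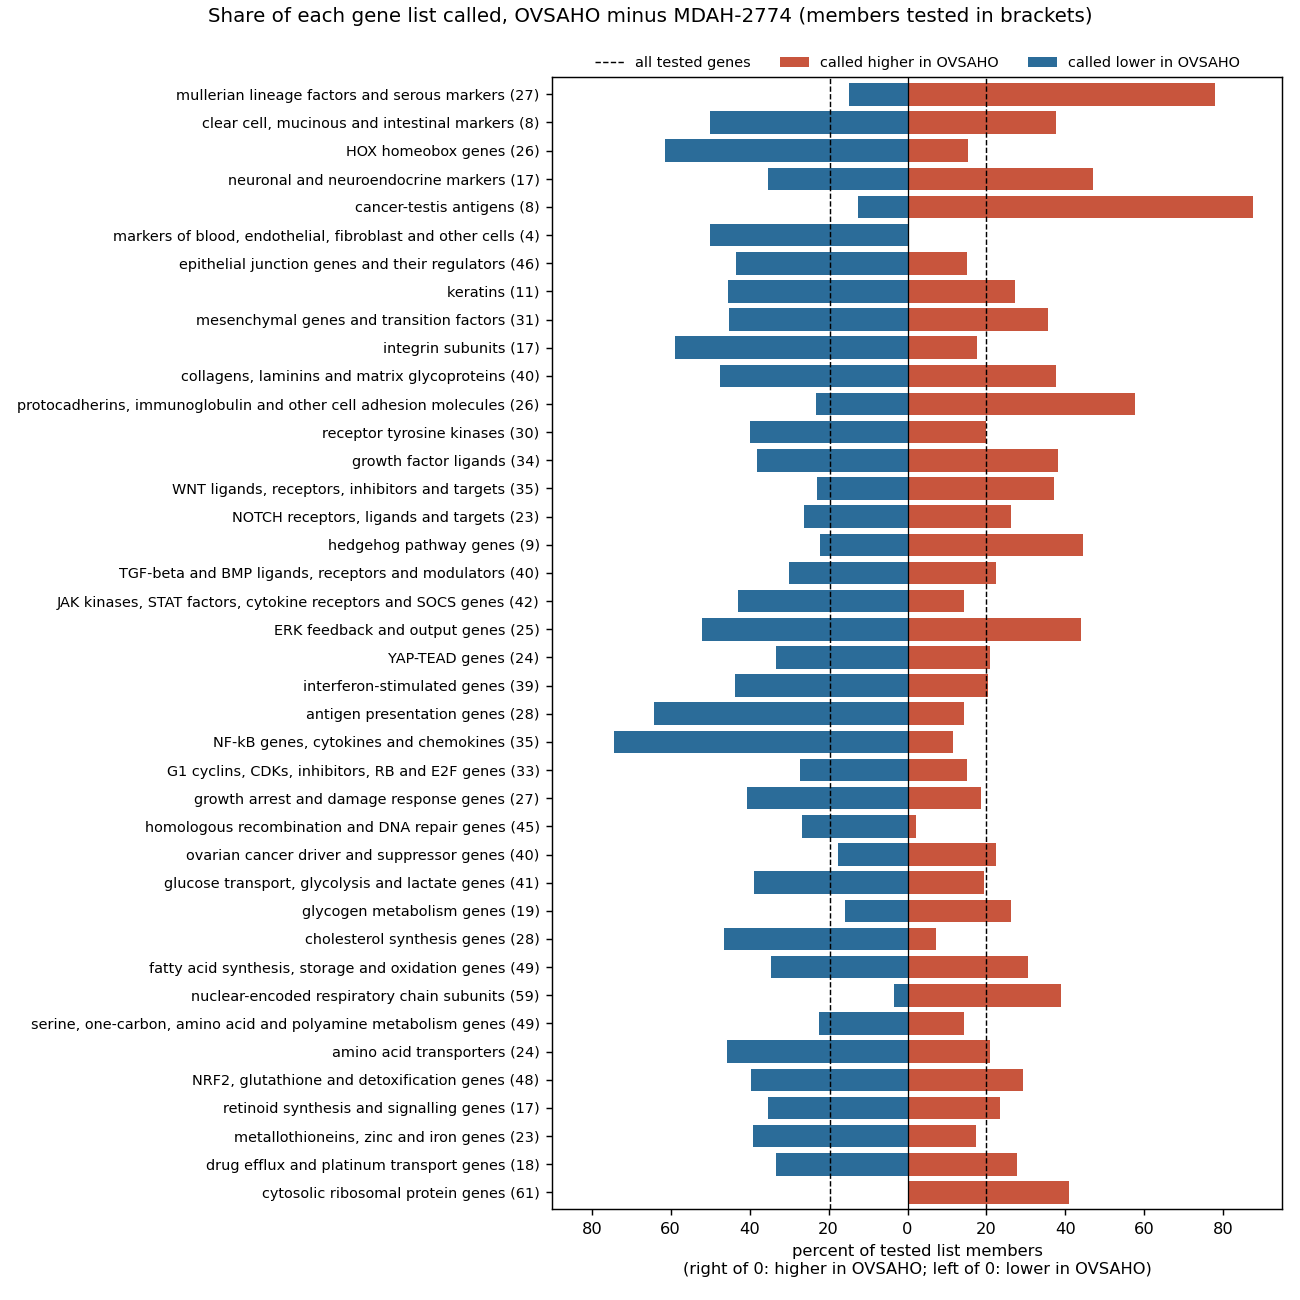
Percent of the tested members of each gene list called higher (right of 0) and lower (left of 0) in OVSAHO relative to MDAH-2774, with the number of tested members in brackets; dashed lines mark the 19.9% and 19.6% of all tested genes. Serous markers and cancer-testis genes reach farthest to the right, and NF-kB genes farthest to the left. In MDAH-2774, 7 of 9 cancer-testis rows and 7 of 27 serous rows had no count. These could enter through other libraries alone, so both bars describe only the members that passed.

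The differences were not spread evenly over chromosomes. Chromosome 19 had the highest share of genes called higher in OVSAHO, 36.3% of 964 tested genes, with 14.8% lower. Chromosome 16 had the lowest share called higher, 5.9% of 625 genes, with 31.5% lower, and on chromosome 14 the shares were 9.9% and 34.9% of 433. The median log2 difference ran from -0.68 on chromosome 14 to 0.45 on chromosome 10. DNA copy number was not measured in these libraries. On chromosome 19 the zinc finger genes, DNA-binding repressors of which many silence transposable elements, were called higher more often than the other genes there. Of 212 tested genes there with a ZNF or ZFP symbol, 121 (57.1%) were called higher and 8 (3.8%) lower, with a median log2 difference of 1.31. Among these 212, 17 had no count in MDAH-2774 and 0 had none in OVSAHO. Those 17 could enter the table through other libraries alone, so the shares and the median describe only the members that passed. Of the 752 other genes of chromosome 19, 229 (30.5%) were called higher and 135 (18.0%) lower. Of the 238 ZNF and ZFP genes elsewhere, 72 (30.3%) were called higher and 22 (9.2%) lower. In MDAH-2774, 16 of the 752 and 3 of the 238 had no count, and in OVSAHO 9 and 2 had none.

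**Figure D5:**
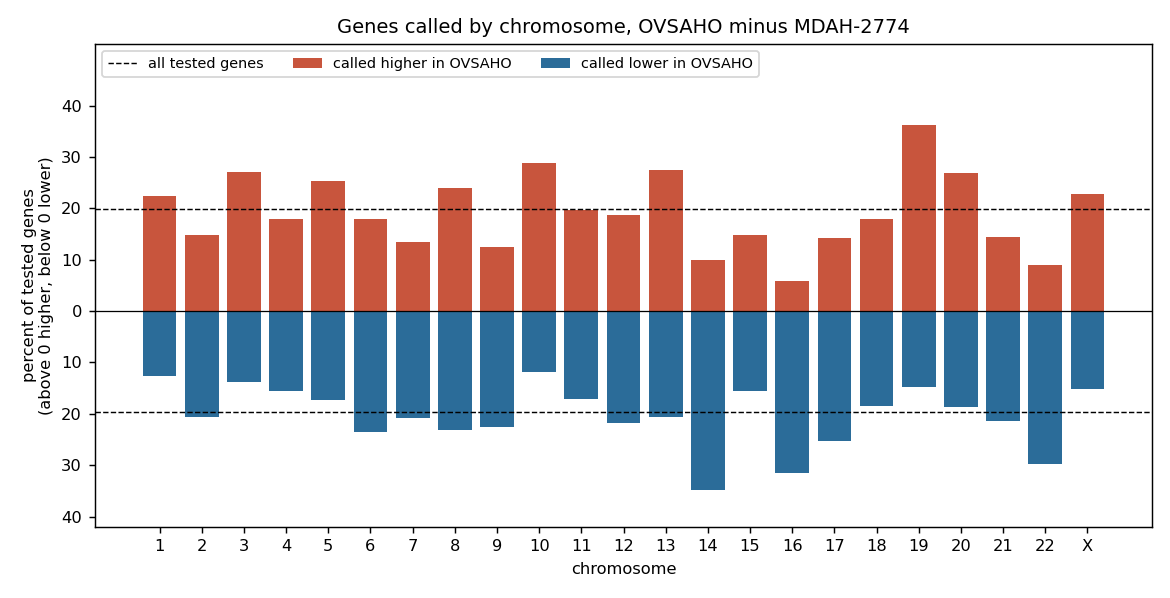
Percent of tested genes on each chromosome called higher (above 0) and lower (below 0) in OVSAHO relative to MDAH-2774, with dashed lines at the shares of all tested genes. Chromosome 19 reaches 36.3% higher, and chromosomes 16, 22 and 14 have the lowest shares higher, 5.9%, 9.0% and 9.9%.

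Runs of neighbouring genes that differed together were counted, with a rule chosen after values were seen, of at least 3 consecutive tested genes called at least 8-fold in the same direction. There were 22 such runs with 95 genes higher in OVSAHO and 24 runs with 79 genes lower. Whether this exceeds what the share of all tested genes at 8-fold would give was not tested. Near-identical copies were counted as separate genes. The longest higher runs held 9 genes each, and 7 of the higher runs lay on chromosome 19. Among these was a stretch from ZNF493 to ZNF730 (chromosome 19, 21397119 to 23147212). In it ZNF43 had 32.1, 32.5 and 36.5 CPM in the OVSAHO libraries and no count in MDAH-2774, and ZNF100 averaged 35.6 ± 2.92 CPM in OVSAHO, against 0.108 ± 0.116 CPM in MDAH-2774. Further higher runs were the KLK genes, the HOXB2 to HOXB4 stretch and the mu class GSTM genes, and a run of CT45A genes on chromosome X, whose members are near-identical copies. The CT45A run was among those of 9 genes. In it CT45A2, CT45A8 and CT45A9 each had 58, 32 and 15 counts in the OVSAHO libraries, so the same reads may stand behind several members. Among the lower runs were the chemokine genes with AREG on chromosome 4, and a stretch of chromosome 15 with CSK, ULK3 and SCAMP2. CSK, the kinase that holds SRC inactive (chromosome 15, 74782084 to 74803198), had no count in OVSAHO and 25.6, 34.9 and 31 CPM in the MDAH-2774 libraries. Its neighbour ULK3 also had no count in OVSAHO and 19.6, 22.9 and 24.1 CPM in MDAH-2774, and SCAMP2 averaged 0.113 ± 0.196 CPM in OVSAHO, against 33.2 ± 2.55 CPM in MDAH-2774. On chromosome 22, SEC14L4 and SEC14L6, lipid-binding protein genes, had no count in OVSAHO and 30.1 ± 1.07 and 18.5 ± 2.43 CPM in MDAH-2774.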

How the data were processed

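RNA was read with a stranded, poly(A)-selected kit, per the labels' protocols. Reads were aligned to hg38 with STAR 2.7.3a and counted with featureCounts 2.8.2, per the submitters' processing notes. Whether counting used strand is not given here. The authors deposited counts per gene and RPKM per gene in 1 table. Its 13869 genes each reached at least 1 RPKM in 1 of the 12 libraries or more, and a gene without a row was not analysed here.

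From the deposited counts, edgeR 4.0.16 (R 4.3.3) gave TMM scaling, CPM and the quasi-likelihood test of the 3 OVSAHO and 3 MDAH-2774 vehicle libraries, with no covariate. The filterByExpr rule with a minimum count of 10 kept 13347 genes and removed 522, and Benjamini-Hochberg adjustment ran over all of them. Library totals are given with the results. With 3 libraries a line, the common biological coefficient of variation was 0.151. Replicates differed beyond sampling noise, so none was counted as a repeat of another. Fold changes on the log2 scale are edgeR's. For a line without any count, the fold is a bound against 3 counts over its 3 libraries, 0.0226 CPM in OVSAHO and 0.0233 CPM in MDAH-2774. For 1 to 3 counts it is a ratio with an exact 95% interval, and bounds and intervals cover counting error only. Figures were drawn with matplotlib 3.10.9.

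Alternatives were RLE and upper-quartile scaling, no filter, at least 1 CPM in 3 libraries, DESeq2 1.42.0, limma-voom (limma 3.58.1), limma on log2 of the authors' RPKM plus 1 or 0.1, a replicate block, glmTreat, and each library left out. Promoter sequences are RefSeq's on GRCh38.p14, covering the 250 bases before RefSeq's start, which can differ from the start in the authors' table.

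The comparison, the gene lists and the alternatives were chosen with earlier results of these data known. Genes named are the 10 per direction with the highest RPKM among those at least 16-fold different without overlap, up to 4 called members per direction of each list with at least 5 CPM, and a short list of genes of general interest. Chosen after their values were seen, outside that rule, were ACLY, ACTA2, AXIN2, CD68, CDH5, COL1A1, COL4A1, COL4A2, CSK, CXCL3, CXCL8, EEF1A1, EMX2, ETV4, ETV5, FN1, FTH1, FTL, HLA-B, ITGB1, KLK5, KLK7, KLK10, KLK13, L1CAM, LAMA3, LDHA, MDM2, MT1X, NFE2L2, NFKB1, NFKBIA, PFKP, RELA, SCAMP2, SCD, SEC14L4, SEC14L6, SLC3A2, SMAD3, SMARCA4, TGFB1, TNF, ULK3, UQCRHL, ZNF43, ZNF100, ZNF493, ZNF730 and the CT45A copies. Some genes that the rule names are not reported here.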

Additional observations from a re-analysis of the deposited data

How the results depend on the processing

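The count of called genes, 5265, lay between 5108 and 5384 with RLE or upper-quartile scaling, without the filter, with the 1 CPM filter, with DESeq2, with limma-voom and with limma on log2(RPKM + 0.1). Leaving out 1 library at a time gave 5217 to 5246 calls, 2603 to 2738 higher and 2490 to 2643 lower, and 9516 to 9683 by the adjusted p alone. With limma on log2(RPKM + 1) it was 4009, and the higher calls were 1746 against 2652. The cause was not tested. glmTreat, which tests against a 2-fold difference, gave 4006 calls, so its adjusted p alone also gave 4006 against 9959. No gene called in the edgeR quasi-likelihood test was called with the opposite sign under any of these settings. The RPKM of the authors shifted the median log2 difference of all genes to -0.13 with a pseudocount of 1 and -0.17 with 0.1, and the share of calls that were higher to 43.6% with either, against 50.4%. Same-numbered libraries showed no clear shared deviation: their deviations from their line's means correlated at -0.0724, -0.00488 and 0.0137. These values cannot show whether same-numbered libraries were handled together. With the replicate block, 5151 genes were called, 2593 higher and 2558 lower, and 9492 by the adjusted p alone, and no named gene changed its call. Of the list counts, 19 moved by over 1.5 times with log2(RPKM + 1), 9 with glmTreat and 1 with the 1 CPM filter, where 1 keratin was called higher against 3. Depth limits low genes most, as for CDH5, with 1.62 ± 0.303 CPM in MDAH-2774 and a log2 difference of -3.69 ± 1.01. Of the genes named in the results, BRCA1, BRCA2, CCND1, KRT18, CCN2, PRAME and FOXA1 lost their call with glmTreat, which requires more than 2-fold beyond the error, and BRCA2, CCN2, CDKN2A, ITGA7 and FOXA1 lost it with log2(RPKM + 1). NRARP lost its call under both of these and under limma-voom, and PPP1R3E under both and with log2(RPKM + 0.1).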

Other observations

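The neural and neuroendocrine genes differed in both directions, 8 of 17 tested members (47.1%) higher and 6 (35.3%) lower in OVSAHO. These shares stood against 19.9% and 19.6% of all tested genes. SST, the hormone somatostatin, had 40.3, 44.9 and 43.8 CPM in the OVSAHO libraries and no count in MDAH-2774, and UCHL1, a neuronal deubiquitinase, had 25, 25.2 and 32.4 CPM in OVSAHO and no count in MDAH-2774. GRIN2A, a glutamate receptor subunit, averaged 17.1 ± 1.56 CPM in OVSAHO and had no count in MDAH-2774. The other way, TUBB3, a neuronal tubulin, averaged 13 ± 2.96 CPM in OVSAHO, against 127 ± 18.1 CPM in MDAH-2774, and NEFL, the neurofilament light chain, had no count in OVSAHO and 15, 22.2 and 20 CPM in the MDAH-2774 libraries.

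Of the hedgehog genes, 4 of 9 (44.4%) were called higher and 2 (22.2%) lower, against 19.9% and 19.6% of all tested genes. The co-receptors BOC and GAS1 averaged 96.7 ± 10.5 and 25.6 ± 1.73 CPM in OVSAHO against 1.68 ± 1.01 and 1.87 ± 0.249 CPM in MDAH-2774, whereas GLI1, the usual target gene of the pathway, averaged 0.721 ± 0.304 CPM in OVSAHO, against 8.46 ± 2.57 CPM in MDAH-2774. Of the glycogen genes, 5 of 19 (26.3%) were called higher and 3 (15.8%) lower, against 19.9% and 19.6% of all tested genes. GYG2, a glycogenin that primes glycogen, averaged 19.5 ± 2.44 CPM in OVSAHO, against 0.516 ± 0.0648 CPM in MDAH-2774, and PYGL, the liver-type phosphorylase that breaks it down, averaged 40.7 ± 6.19 CPM in OVSAHO, against 287 ± 17.8 CPM in MDAH-2774. PPP1R3E, a glycogen-targeting phosphatase subunit, was called higher, and lost that call without the third MDAH-2774 library. Of the drug transporters, 5 of 18 (27.8%) were called higher and 6 (33.3%) lower, against the same shares of all tested genes. The exporters ABCC3 and ABCC2 averaged 1.87 ± 0.0735 and 1.23 ± 1.27 CPM in OVSAHO against 40.6 ± 2.7 and 25.4 ± 0.68 CPM in MDAH-2774, while their relative ABCC4 averaged 213 ± 12.6 CPM in OVSAHO, against 68.1 ± 3.23 CPM in MDAH-2774.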
